A study of Mus musculus with 13 samples.

Results

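The genes described here encode the WNT ligands and the Frizzled receptors of the mouse. They are the protein-coding genes of mm10 whose symbol is Wnt with a number and an optional letter, or Fzd with a number. This name rule used no measured value and gave 19 WNT and 10 Frizzled genes, 29 of the 21887 protein-coding genes placed on chromosomes.

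WNT proteins are secreted, lipid-modified signals that bind Frizzled receptors, a family of proteins that cross the membrane repeatedly and share a cysteine-rich binding domain outside the cell. Together with the co-receptors LRP5 and LRP6, a bound Frizzled stops the complex of Axin, APC and GSK3 from destroying beta-catenin, which then acts with TCF/LEF factors at target genes. Some ligands, among them WNT5A and WNT11, are better known for signalling through ROR, RYK and PTK7 without beta-catenin. In embryonic stem cells (ESCs) inhibition of GSK3 is widely used to support self-renewal. NCoR and SMRT are large co-repressor scaffolds that bind and activate the histone deacetylase HDAC3, and acetylation of histone H3 at lysine 27 (H3K27ac) marks active promoters and enhancers.

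Chromatin immunoprecipitation and sequencing was done with antibodies to NCoR, SMRT and H3K27ac on untreated ESCs of strain C57BL/6J, untreated embryonic fibroblasts (MEFs) of strain C57BL/6J-OG2, and MEFs of the same strain given the reprogramming factors OSKM (Oct4, Sox2, Klf4 and c-Myc). The co-repressors were mapped in ESCs and day 9 OSKM cultures. The H3K27ac libraries are 1 of ESCs, 1 of MEFs and 6 of OSKM cultures, taken on days 5, 9 and 13 from cells that received either a FLAG control plasmid or HDAC3-YF, a form of HDAC3 (Y298F) without deacetylase activity. Both arms carry OSKM, so the comparison of HDAC3-YF with FLAG is one of the mutant on top of reprogramming, and the cultures are mixtures of cells that the labels call presumed intermediates. The labels speak of transfection and the protocol of transduction with virus. The protocols give an N2B27-based medium with LIF, the GSK3 inhibitor CHIR99021 and the MEK inhibitor PD0325901 for ESCs, and serum or serum-replacement medium with LIF for MEFs after infection. Cell type, strain and this pathway-activating medium therefore differ together between ESCs and the other cells and cannot be told apart.

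Of 13 libraries, 12 had a peak list and are used; the ESC input was not analysed here. Each library was the only one of its group, so no value has a replicate error. No test between conditions was made, except 1 that took the 3 days as pairs and that no gene could pass. The H3K27ac lists held 25499 peaks in ESCs, 26591 in MEFs and 14251 to 16944 in the OSKM cultures, so fewer peaks at a gene in OSKM cultures go along with shorter lists, and the read depth behind them is unknown. The labelled cell types were checked against marker genes, counting the H3K27ac intervals that touch each gene or its 20 kb flanks. The 6 pluripotency genes summed to 41 peaks in ESCs, 1 in MEFs and 1 to 4 in the OSKM libraries. The 6 fibroblast genes summed to 3 in ESCs, 27 in MEFs and 4 to 9 in the OSKM libraries, so neither marker list was high in the day 13 cultures. The 3 epithelial genes summed to 14, 4 and 6 to 9, the 3 endothelial genes to 5, 10 and 0 to 4, and the 2 blood genes to 4, 6 and 1 to 3 in the same order. In such mixed cultures a mark in fewer cells and a weaker mark in every cell cannot be told apart.

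The promoters that the co-repressor results turn on are shown first, as the 250 bases before the annotated start, 5′ to 3′ in the direction of the gene, from RefSeq on GRCm38.p6, the assembly with the coordinates of mm10. Fzd9 and Wnt9a had a day 9 co-repressor site at the start and hold CACGTG, the E-box form that MYC binds with MAX, which is in capitals. Fzd5 also had a day 9 site and has GGGCGG or its complement CCGCCC in capitals, the GC box of Sp and Klf factors. Fzd1 had a day 9 site and has TATAAA, the letters of the TATA box, in capitals, at -202 from the start. Fzd10 had no co-repressor peak in any list and is shown for contrast, with its CCGCCC in capitals.
Fzd9 (chr5:135251048-135251297, minus strand): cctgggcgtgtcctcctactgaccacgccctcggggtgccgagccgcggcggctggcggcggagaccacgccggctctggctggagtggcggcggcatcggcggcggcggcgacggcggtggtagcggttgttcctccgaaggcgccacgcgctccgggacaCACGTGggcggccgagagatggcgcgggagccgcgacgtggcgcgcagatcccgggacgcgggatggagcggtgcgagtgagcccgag
Wnt9a (chr11:59306680-59306929, plus strand): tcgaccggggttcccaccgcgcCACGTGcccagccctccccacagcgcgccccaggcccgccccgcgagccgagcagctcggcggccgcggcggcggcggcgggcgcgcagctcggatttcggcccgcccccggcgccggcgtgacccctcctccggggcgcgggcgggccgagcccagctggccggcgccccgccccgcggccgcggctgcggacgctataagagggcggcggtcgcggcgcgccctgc
Fzd5 (chr1:64737751-64738000, minus strand): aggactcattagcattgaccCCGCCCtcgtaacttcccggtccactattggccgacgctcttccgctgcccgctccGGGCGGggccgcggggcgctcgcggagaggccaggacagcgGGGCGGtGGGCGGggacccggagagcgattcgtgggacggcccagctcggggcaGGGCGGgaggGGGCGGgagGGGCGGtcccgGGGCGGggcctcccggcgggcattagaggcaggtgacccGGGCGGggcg
Fzd1 (chr5:4758217-4758466, minus strand): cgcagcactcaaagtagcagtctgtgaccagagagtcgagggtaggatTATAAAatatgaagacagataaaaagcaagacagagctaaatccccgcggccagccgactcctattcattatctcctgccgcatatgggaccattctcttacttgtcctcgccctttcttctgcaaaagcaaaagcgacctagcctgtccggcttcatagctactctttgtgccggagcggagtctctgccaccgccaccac
Fzd10 (chr5:128600856-128601105, plus strand): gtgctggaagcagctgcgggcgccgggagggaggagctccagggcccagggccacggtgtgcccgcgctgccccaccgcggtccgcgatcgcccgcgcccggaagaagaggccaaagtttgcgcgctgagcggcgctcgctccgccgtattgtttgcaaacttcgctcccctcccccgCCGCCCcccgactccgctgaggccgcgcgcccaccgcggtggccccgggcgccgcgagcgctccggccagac

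RefSeq promoters were at hand for 21 of the 29 genes, with 24 starts, against 21263 starts of all 17492 genes with a promoter entry. The promoters of WNT and Frizzled genes were rich in CpG, with a median of 24 CpG per 250 bases against 10 over all promoters, and a median GC content of 71.8% against 55.6%. CACGTG, the same on both strands, was found in 2 of the 24 promoters, at -88 in Fzd9 and at -228 in Wnt9a counted from the start, and in 6.63% of all promoters. In Fzd9 the last base of CACGTG is also the first of a GGGCGG. Both genes with CACGTG had a day 9 site at the start, among 4 such promoters, and none of the other 20 promoters held it. Over all promoters the share with CACGTG was 9.49% with a day 9 site and 5.80% without. Promoters with a day 9 site were also richer in CpG, with a median of 20 against 6, and in GC, at 63.6% against 53.2%. The part of base composition in the CACGTG shares was not tested. GGGCGG on either strand was found in 18 of 24, against 42.6% of all promoters. It was in 3 of the 4 WNT and Frizzled promoters with a day 9 site and in 15 of the 20 without, 75.0% of each. Over all promoters the shares were 67.6% with a day 9 site and 35.4% without. TATAAA on either strand was found in 2 of 24, in Fzd1 and Wnt11, against 11.6%. CTTTGAA or CTTTGAT on either strand, the core that TCF/LEF factors read, was found in 2 of 24, in Wnt11 and Wnt5b, against 6.73%. Such matches describe the letters in these windows and do not locate a bound factor.

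Every gene was counted in 2 ways. The first counts peaks that overlap, by at least 1 bp, the gene and the 20 kb to either side of it, here called the locus. The second asks whether a peak centre lay within 1 kb of the annotated start, or of either annotated end for the 8 genes without a known strand (Fzd2, Fzd3, Fzd6, Fzd8, Wnt5a, Wnt7b, Wnt8a and Wnt10a). The second is given because a locus can hold peaks of its neighbours. Over the 8 H3K27ac lists the 29 loci held 207 peaks, or 196 once those in overlapping loci are counted once. Of these, 84 lay at the start of a WNT or Frizzled gene, 25 at the start of another gene and 87 at neither. Loci overlap for Wnt6 and Wnt10a, Wnt3a and Wnt9a, Wnt3 and Wnt9b, and Wnt1 and Wnt10b, which lie next to each other as pairs, so these pairs share peaks.

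The receptor genes carried H3K27ac at the start more often than the ligand genes. In ESCs 10 of 10 Frizzled genes and 4 of 19 WNT genes had a start peak, against 51.1% of all protein-coding genes. In MEFs 9 of 10 Frizzled genes, all but Fzd10, and 6 of 19 WNT genes had one, against 51.3%. Restricted to genes of known strand, the counts were 6 of 6 Frizzled and 3 of 15 WNT genes in ESCs (52.3% of all), and 5 of 6 and 5 of 15 in MEFs (52.5%). Frizzled genes thus lay above the share of all genes and WNT genes below it in both cell types, as a description of these libraries without a test. The median locus window was 44.6 kb for Frizzled genes and 62.9 kb for WNT genes, with Fzd3 at 110.0 kb and Fzd6 at 72.0 kb above the WNT median.

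In the OSKM cultures the same order held. With FLAG, 8, 8 and 7 of 10 Frizzled starts and 1, 2 and 3 of 19 WNT starts were marked on days 5, 9 and 13, against 44.9%, 45.8% and 45.2% of all genes. With HDAC3-YF, 6, 6 and 9 Frizzled starts and 1, 1 and 2 WNT starts were marked, against 43.3%, 44.7% and 46.6%. The Frizzled count with HDAC3-YF was thus lower than with FLAG on the first 2 days and higher on the last.

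**Figure D1:**
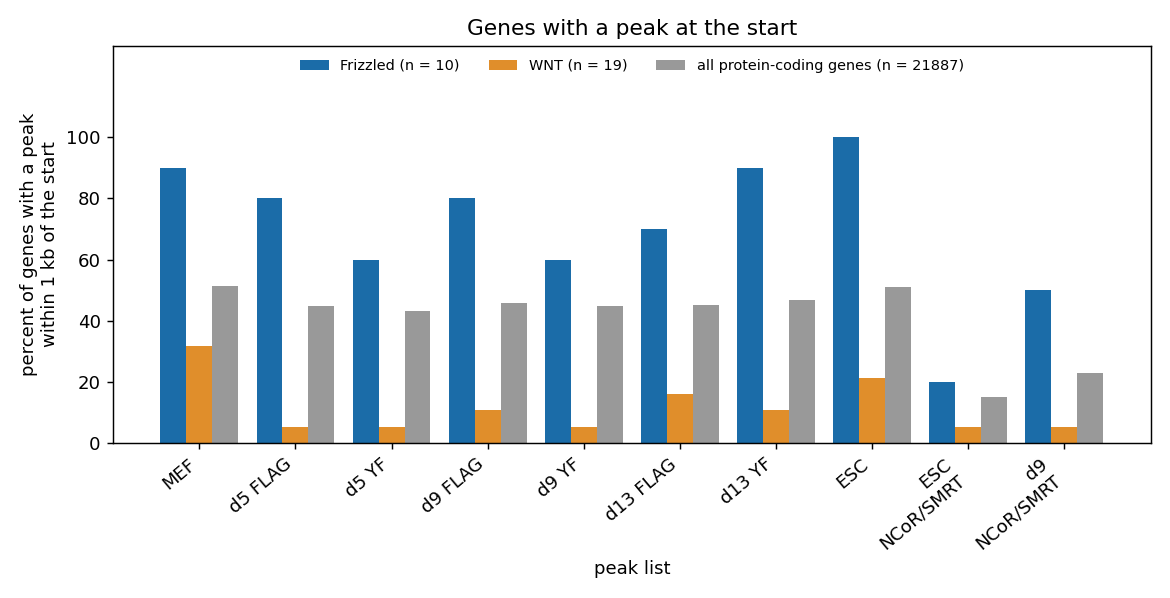
Percent of genes with a peak centre within 1 kb of the start in each H3K27ac list and in the merged NCoR/SMRT sites of ESCs and of day 9 OSKM cultures, for the 10 Frizzled genes, the 19 WNT genes and all 21887 protein-coding genes; d5, d9 and d13 are days of OSKM culture and YF is HDAC3-YF. The Frizzled bar stands above the grey bar in all 10 groups of bars and the WNT bar below it in all 10.

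Among the receptors, Fzd3 and Fzd6, which are linked to planar polarity, were the constant ones. Each had a start peak in all 8 lists, as did 35.1% of all genes, and no WNT gene did. At the locus Fzd3 had 1 peak in ESCs, 1 in MEFs, 2, 2 and 2 in the FLAG series and 1, 2 and 2 in the HDAC3-YF series, where each series gives days 5, 9 and 13 in this order here and below. Fzd6 had 1 peak in ESCs, 3 in MEFs, 2, 2 and 2 in the FLAG series and 1, 1 and 1 in the HDAC3-YF series. Its start peak was at the ceiling score of 200 in both ESCs and MEFs, and the Fzd3 start peak was so in ESCs. The additional Fzd3 peak of the OSKM lists lay closest to the start of its neighbour Fbxo16 in 4 lists and inside Fzd3 in the day 9 HDAC3-YF list.

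Fzd1, Fzd2, Fzd4, Fzd5 and Fzd8 had start peaks in ESCs and MEFs and were without one in 1 or 2 OSKM lists. Fzd1 had 1 locus peak in every list except day 5 HDAC3-YF, which had none. Fzd4, the receptor for Norrin as well as WNTs, had 1 in every list except the HDAC3-YF lists of days 5 and 9, and its start lies beside that of Tmem135, so the peak cannot be assigned to one of them. Fzd8 had 1 in every list except day 9 HDAC3-YF. These 3 genes each carried a single peak at most, always at the start. At each of these 5 genes, the lists without a start peak were HDAC3-YF lists. Fzd7, described below, also had start peaks in ESCs and MEFs, and its 1 list without one was day 13 FLAG.

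Fzd2 had 1 locus peak in ESCs, 2 in MEFs, 1, 1 and 1 in the FLAG series and 1, 0 and 2 in the HDAC3-YF series. The second Fzd2 peak, 16315 to 16387 bp beyond the higher-coordinate end, was found in MEFs and in day 13 HDAC3-YF cultures. Fzd5 had 2 peaks in ESCs, 1 in MEFs, 1, 1 and 1 in the FLAG series and 2, 1 and 0 in the HDAC3-YF series. Its start peak lay 352 to 889 bp into the gene in 7 lists and was absent at day 13 with HDAC3-YF, the reverse of the other day 13 differences among receptor starts described below.

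Fzd7, a receptor much studied in pluripotent cells, had the most variable locus of the 10 receptors. It held 3 peaks in ESCs, 2 in MEFs, 1, 1 and 3 in the FLAG series and 1, 4 and 1 in the HDAC3-YF series. In ESCs the start peak had the ceiling score of 200, and further peaks lay 9312 bp upstream and 5938 bp downstream of the start (chr1:59482147-59486955 is the gene). The 4 peaks of day 9 HDAC3-YF lay 16975 bp upstream, 525 bp on either side of the start and 6075 bp downstream, so 1 lay near the downstream ESC peak and 1 near a MEF peak 16727 bp upstream. At day 13 with FLAG the peak nearest the start lay 1214 bp into the gene, just outside the 1 kb limit, and the list holds a peak 16636 bp upstream too.

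Fzd9 and Fzd10 carried the mark most sparsely of the 10 receptors. Fzd9, a receptor of neural and bone tissue deleted in Williams syndrome in people, had 1 peak in ESCs, MEFs, day 9 HDAC3-YF and day 13 HDAC3-YF, and none in day 5 of either arm or in FLAG at days 9 and 13. The ESC peak had a score of 161, with 72.7% of the ESC list at or below it. The MEF, day 9 and day 13 peaks stood low in their own lists, with 21.1%, 22.4% and 19.6% at or below. Fzd10 (chr5:128601106-128604093) had 2 peaks in ESCs, 1 at day 13 with HDAC3-YF and 0 in the other 6 lists. The ESC start peak, 322 bp upstream, had the ceiling score, whereas the day 13 peak, 53 bp downstream, was among the weakest of its list with 1.45% at or below its score. Of all 29 genes Fzd10 alone had a start peak in ESCs and day 13 HDAC3-YF and in no other list.

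**Figure D2:**
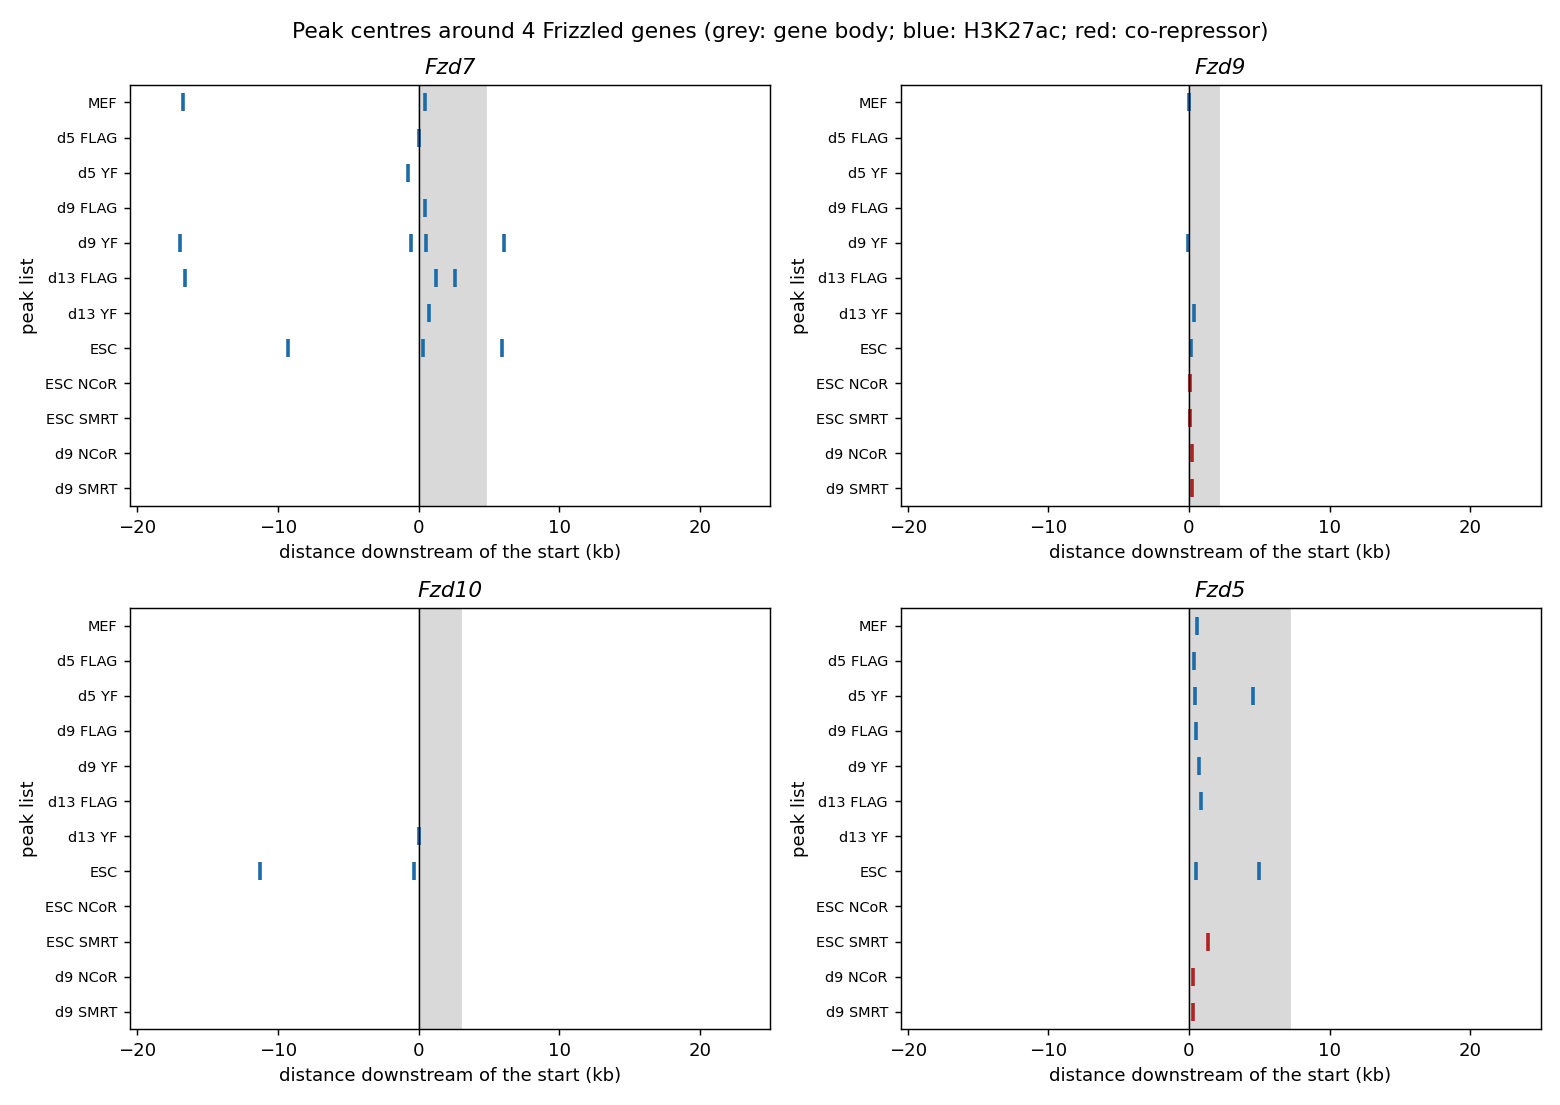
Peak centres in each of the 12 lists, as distance downstream of the gene start in kb, for Fzd7, Fzd9, Fzd10 and Fzd5, with the gene body in grey, H3K27ac in blue and NCoR or SMRT in red. Fzd9 shows peaks only at its start, of H3K27ac in 4 lists and of the co-repressors in all 4; Fzd10 shows H3K27ac in ESCs and once at day 13; Fzd7 shows its 4 peaks of day 9 HDAC3-YF.

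Among the ligands, 10 of 19 had no start peak in any of the 8 lists (Wnt1, Wnt3, Wnt3a, Wnt4, Wnt6, Wnt7a, Wnt7b, Wnt8b, Wnt9b and Wnt10b), against 40.6% of all genes, and 0 of 10 Frizzled genes were without one. Wnt7a, Wnt8b and Wnt9b, ligands best known from limb, brain and kidney development, had no H3K27ac at all within 20 kb in any list, as had 23.3% of all genes. Wnt2, Wnt3, Wnt4 and Wnt8a had at most 1 locus peak in a list. These were MEF and day 9 and day 13 FLAG for Wnt2, ESC and day 5 HDAC3-YF for Wnt3, day 9 and day 13 FLAG for Wnt4, and both arms of day 9 for Wnt8a. None of these 7 ligand genes had a co-repressor peak.

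The ligand genes with a start peak in MEFs were Wnt2b, Wnt5a, Wnt5b, Wnt9a, Wnt11 and Wnt16. Wnt5a, a ligand of mesenchyme that acts in cell movement and polarity, had 2 MEF peaks, at the lower-coordinate end and 6160 bp inside the gene, with scores of 118.8 and 119.8. It had 1 peak in day 13 FLAG and 0 in ESCs and the other OSKM lists. Wnt16, a ligand of bone and joint, had 2 peaks in MEFs, 1 in both day 5 arms and in day 13 FLAG, and 0 elsewhere including ESCs. Wnt7b, a ligand of epithelia, had 2 in MEFs, 2 in day 13 FLAG, 1 in day 13 HDAC3-YF and 0 elsewhere, and all of them lay 11658 to 17884 bp outside the gene. Wnt9a had 2 in MEFs, 1 in ESCs and in day 9 FLAG, and 0 in the other 5 lists. None of Wnt5a, Wnt7b and Wnt16 had a peak in ESCs.

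Wnt2b, Wnt10a and Wnt11 each had a distal peak at or near 1 position in several lists. Wnt11 had 1 peak in ESCs, 2 in MEFs, 1, 1 and 1 in the FLAG series and 1, 1 and 2 in the HDAC3-YF series. In all 8 lists 1 of these peaks lay 18936 to 19535 bp upstream of the start, with no other gene start within 1 kb, and the start itself carried a peak in MEFs and day 13 HDAC3-YF. Wnt10a had 3 peaks in ESCs, 3 in MEFs, 1, 1 and 2 in the FLAG series and 1, 1 and 1 in the HDAC3-YF series. A peak 12929 to 13059 bp beyond its higher-coordinate end was present in all 8 lists. Wnt2b had 2 peaks in ESCs, 3 in MEFs, 1, 0 and 1 in the FLAG series and 0, 0 and 1 in the HDAC3-YF series, and a peak 6302 to 6501 bp upstream was in each list that had any. Peaks thus came back at or near the same position in separate libraries at these 3 genes, although at Wnt11 the ESC and MEF intervals did not overlap. The starts of Wnt2b and Wnt11 were marked in 2 of 8 lists, and Wnt10a was marked in 1, at its higher-coordinate end.

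At the remaining ligand loci, some or all of the peaks lay at or near the starts of neighbours. Wnt5b, the longest locus at 152 kb, had 6 peaks in ESCs, 4 in MEFs, 5, 3 and 1 in the FLAG series and 5, 3 and 2 in the HDAC3-YF series. The start of Fbxl14, which lies inside Wnt5b, carries 1 of them in every list and the only one of day 13 FLAG. Without peaks at other starts, Wnt5b kept 5 in ESCs and 3 in MEFs. The FLAG series then held 4, 2 and 0 and the HDAC3-YF series 4, 2 and 1. The start of Wnt5b itself was marked in ESCs, MEFs and day 13 HDAC3-YF. Wnt3a had 2 peaks in ESCs and 1 in each other list, all at the start of Arf1 or Wnt9a, so Wnt3a had no peak of its own. Wnt10b had 2 in ESCs, 2 in MEFs, 1, 1 and 2 in the FLAG series and 1, 1 and 2 in the HDAC3-YF series, and the one in all 8 lists is at the start of Arf3. Wnt1 had 1 in ESCs, 1 in MEFs, 0, 0 and 1 in the FLAG series and 0, 0 and 2 in the HDAC3-YF series, each nearer to the start of Wnt10b or Ddn. Wnt6 had 2 in ESCs, 2 in MEFs, 0, 0 and 2 in the FLAG series and 0, 1 and 1 in the HDAC3-YF series, some at the starts of Prkag3 or inside Wnt10a. A locus peak was present in all 8 lists for 8 of the 29 genes, against 52.8% of all, and for 5 (Fzd3, Fzd6, Fzd7, Wnt10a and Wnt11) once peaks at the start of another gene were left out.

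**Figure D3:**
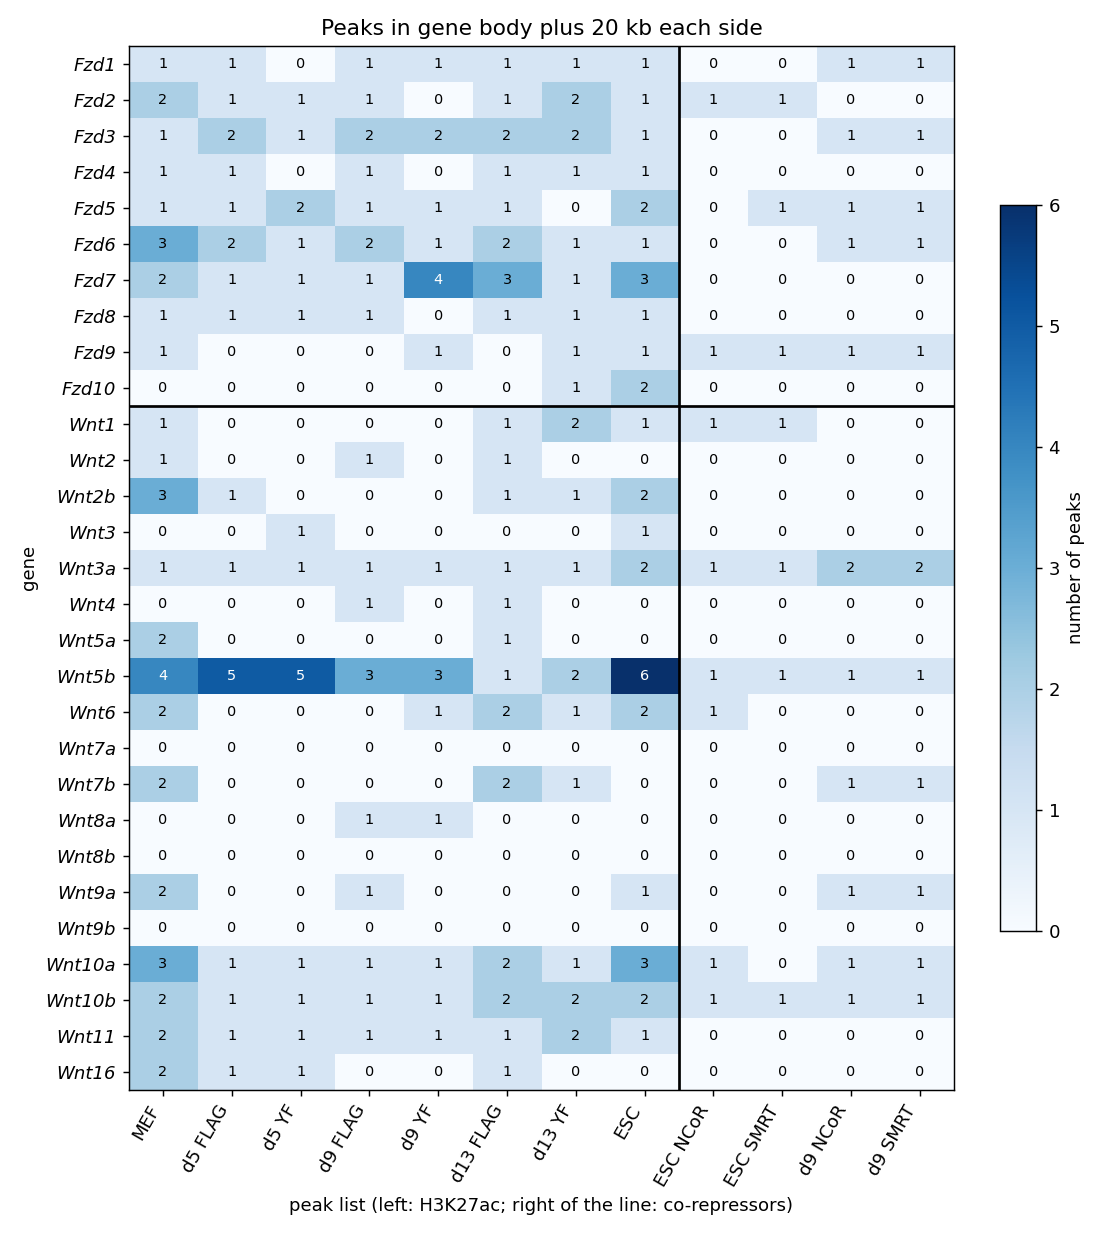
Number of peaks at the locus, the gene and 20 kb to either side, for each of the 29 genes (rows) in the 8 H3K27ac lists, left of the line, and the 4 co-repressor lists, right of it; darker blue means more peaks. Counts run from 0 to 6, and the rows of Wnt7a, Wnt8b and Wnt9b are 0 throughout.

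The comparison of ESCs with MEFs asks how the genes differ between pluripotent cells and the cells that reprogramming starts from. More locus peaks were found in ESCs for 6 genes (Fzd5, Fzd7, Fzd10, Wnt3, Wnt3a and Wnt5b) and fewer for 9 (Fzd2, Fzd6, Wnt2, Wnt2b, Wnt5a, Wnt7b, Wnt9a, Wnt11 and Wnt16), with 14 equal. The Wnt3a difference is a peak at the start of Arf1, and without peaks at other starts Wnt3a had 0 in both cell types. Over all genes 27.8% had more and 22.7% fewer, and the median difference was 0 for both sets. Differences of at least 2 peaks were seen for Fzd10 and Wnt5b upward and Fzd6, Wnt5a, Wnt7b and Wnt16 downward, where 12.8% and 10.3% of all genes differed so much. By family, Frizzled genes had 14 peaks in ESCs and 13 in MEFs, and WNT genes 21 and 27. The ESC-high receptor Fzd10 and the MEF-high ligand Wnt5a are the clearest cases at the start, each with a peak in one list and none in the other. The pluripotency and fibroblast marker sums given above differ between the same libraries, and their part in these differences was not tested.

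From MEFs to OSKM cultures, most receptor starts kept a peak and most ligand starts did not. Of 9 Frizzled genes with a start peak in MEFs, 8 also had one at day 5 with FLAG; of 6 WNT genes 1 did, Wnt16, and of all genes with a MEF start peak 85.1% did. Of the 10 Frizzled starts marked in ESCs, 7 were marked at day 13 with FLAG and 9 with HDAC3-YF, where all genes gave 81.5% and 84.5%. Of the 4 WNT starts marked in ESCs (Wnt2b, Wnt5b, Wnt9a and Wnt10a), none was marked at day 13 with FLAG and 1, Wnt5b, with HDAC3-YF. At Wnt10a, without a known strand, the ESC peak lay 741 bp from the higher-coordinate end, which may not be its start. Of the MEF list, 0.651% lay at or below the score of the Wnt2b start peak and 1.63% at or below that of Wnt16. The shares were 23.7% for Wnt11, 29.5% for Wnt5b, 44.0% for Wnt9a and 67.4% for Wnt5a. For the Frizzled start peaks of MEFs they were 59.9% or higher, except 21.1% for Fzd9. The part of peak score and of the shorter OSKM lists in this was not tested.

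**Figure D4:**
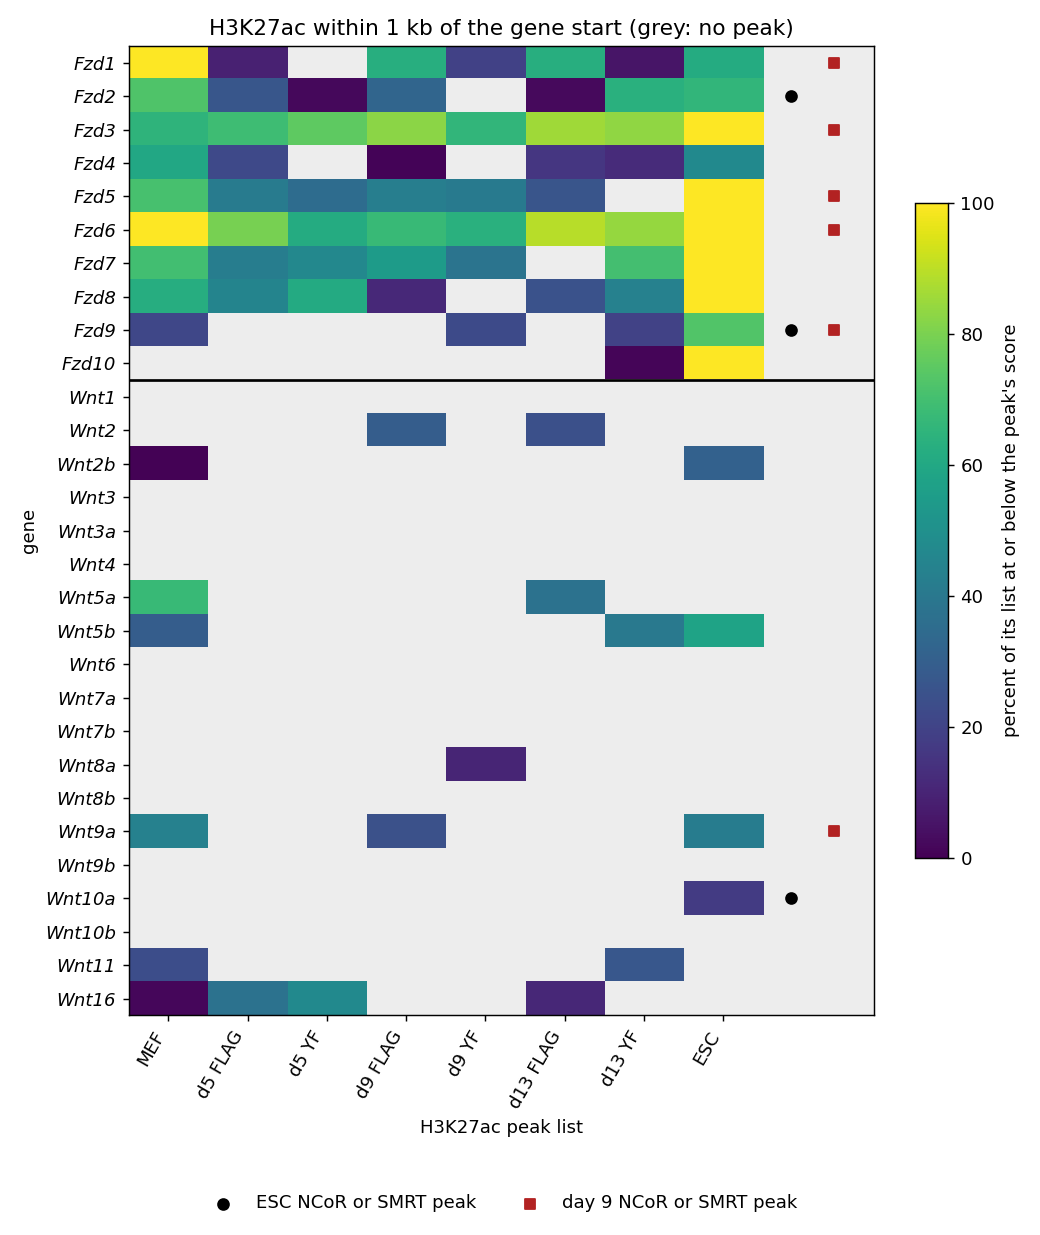
H3K27ac peaks within 1 kb of the start of each gene (rows) in the 8 lists, coloured by the percent of that list's peaks at or below the peak's score, with grey for no peak; the 2 right-hand positions mark genes with an NCoR or SMRT peak at the start in ESCs (black dot) or day 9 cultures (red square). Colours rank a peak within its own list and are not to be compared across lists. The Frizzled rows are mostly filled and the WNT rows mostly grey.

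The comparison of HDAC3-YF with FLAG asks whether adding the HDAC3 form without deacetylase activity goes with more H3K27ac at these genes. HDAC3 activity itself was not measured here. The genes did not move one way, and the balance between the arms turned with the peaks counted. At day 5, 2 genes had more locus peaks with HDAC3-YF (Fzd5 and Wnt3) and 5 had fewer (Fzd1, Fzd3, Fzd4, Fzd6 and Wnt2b), against 14.2% and 11.0% of all genes. At day 9, 3 had more (Fzd7, Fzd9 and Wnt6) and 7 fewer (Fzd2, Fzd4, Fzd6, Fzd8, Wnt2, Wnt4 and Wnt9a), against 10.7% and 15.0%. At day 13, 6 had more (Fzd2, Fzd9, Fzd10, Wnt1, Wnt5b and Wnt11) and 10 fewer (Fzd5, Fzd6, Fzd7, Wnt2, Wnt4, Wnt5a, Wnt6, Wnt7b, Wnt10a and Wnt16), against 15.5% and 16.4%. The median difference was 0 at each day for these genes and for all genes, and all differences but those of Fzd7 were of a single peak. Fzd7 had 3 more with HDAC3-YF at day 9, where 1.58% of all genes gained and 2.77% lost at least 2, and 2 fewer at day 13, where 2.67% gained and 3.53% lost as many; at day 5 none of the 29 genes differed by 2 (2.62% and 1.42%). The locus peaks summed to 21, 21 and 29 in the FLAG series and 18, 19 and 24 in the HDAC3-YF series.

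That order of the arms did not hold when fewer peaks were used. With each list limited to its 14251 best-scoring peaks, day 9 gave 19 peaks with HDAC3-YF and 16 with FLAG, with 4 genes higher and 3 lower (11.7% and 10.5% of all genes), whereas days 5 and 13 still gave fewer with HDAC3-YF (16 against 19 and 24 against 25). With the top 50% of each list, day 5 gave 8 peaks with HDAC3-YF and 7 with FLAG, with 1 gene higher and 0 lower (8.68% and 5.74%). In the same setting day 9 gave 7 in each arm, with 2 genes higher and 2 lower (5.77% and 8.39%), and day 13 gave 9 against 7, with 3 higher and 1 lower (8.76% and 10.8%).

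At the starts, the genes gained and lost differed from day to day. At day 5 no start was marked with HDAC3-YF alone, and Fzd1 and Fzd4 were marked with FLAG alone (1.94% and 3.53% of all genes). At day 9 Fzd9 and Wnt8a were marked with HDAC3-YF alone, and Fzd2, Fzd4, Fzd8, Wnt2 and Wnt9a with FLAG alone (2.52% and 3.63%). At day 13 Fzd7, Fzd9, Fzd10, Wnt5b and Wnt11 were marked with HDAC3-YF alone, and Fzd5, Wnt2, Wnt5a and Wnt16 with FLAG alone (5.57% and 4.13%). Fzd9 was the 1 gene marked at the start with HDAC3-YF alone on 2 days, while Fzd4 was marked with FLAG alone on 2 days, as was Wnt2. The Fzd7 difference at day 13 rests on the 1 kb limit, since the FLAG peak lay 1214 bp from the start; with 2.5 kb around the start, 4 genes were marked with HDAC3-YF alone and 4 with FLAG alone at day 13.

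Fzd6 was the 1 gene of the 29 with fewer locus peaks with HDAC3-YF at all 3 days, as had 1.44% of all genes, and none had more at all 3 (0.635%). With the 3 days taken as pairs, an exact two-sided sign-flip permutation test gave p = 0.25 for Fzd6. This is the smallest that 3 pairs allow, so no gene could pass. A gene with 1 sign at all 3 days gets this value by construction, and the days are not replicates. The Fzd6 start was marked in both arms throughout. The difference is a peak 4066 to 5350 bp beyond the higher-coordinate end, found in MEFs and in FLAG at days 5, 9 and 13 but not with HDAC3-YF. In the FLAG lists its scores were 7.98, 7.29 and 7.24, near the lowest score in a list (6.68 to 6.71), and at day 9 the peak falls outside the 14251 highest-scoring ones.

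NCoR and SMRT peaks that overlapped were merged into co-repressor sites. In ESCs 9 of the 29 loci held a site, against 29.7% of all genes, and 11 did at day 9, against 37.2%, with 6 in common. Several of these sites lie at neighbouring genes. The site of Wnt5b is at the start of Fbxl14, those of Wnt3a are at Arf1 and Wnt9a, the day 9 site of Wnt10b is at Arf3 and its ESC site lies inside Wnt1. The ESC site of Wnt6 lies inside Wnt10a. Of the 34 distinct co-repressor peaks in the loci, 17 lay at the start of a WNT or Frizzled gene, 10 at the start of another gene and 7 at neither. These peaks were counted per list, so an interval found in both the NCoR and the SMRT list is counted in each.

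Restricted to the starts, the sites were mainly at receptor genes. At day 9, 5 of 10 Frizzled genes (Fzd1, Fzd3, Fzd5, Fzd6 and Fzd9) and 1 of 19 WNT genes (Wnt9a) had a site at the start, against 22.7% of all genes. In ESCs, Fzd2, Fzd9 and Wnt10a had one, against 15.0%. At Wnt10a, at the higher-coordinate end, only the NCoR list held it. Its score of 1.26 is above the highest score in the ESC SMRT list, 0.998, so absence of SMRT cannot be read from this. Fzd9 was the 1 gene with a site at the start in both, with NCoR and SMRT 91 bp downstream of the start in ESCs and 250 bp downstream at day 9. At Fzd1, Fzd5, Fzd6, Fzd9 and Wnt9a the NCoR and SMRT intervals of day 9 were identical. Their scores were also the same in both lists, such as -0.939 at Fzd1 and 0.799 at Fzd6. The ESC intervals of Fzd2 and Fzd9 were shared in the same way. An interval with the same score in both lists cannot be read as a separate call for each protein. At Fzd3 the NCoR and SMRT intervals of day 9 were apart by less than 1 kb and had different scores. Of the 4 genes of known strand with a day 9 NCoR peak at the start, 4 had it downstream, at a median of 288 bp, where 73.2% of all such peaks lay downstream, at a median of 122 bp.

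Co-repressor sites at these starts mostly lay with H3K27ac. In ESCs the 3 starts with a site (Wnt10a at its higher-coordinate end) all had an H3K27ac peak, as had 93.0% of all such starts. At day 9, 5 of 6 had one with FLAG and 5 of 6 with HDAC3-YF, against 95.0% and 94.0%. The exception with FLAG was Fzd9 and the exception with HDAC3-YF was Wnt9a. These 2 are also the genes whose promoters, printed above, hold CACGTG, which is given as a description. The day 9 co-repressor cultures are labelled OSKM without either plasmid, so the H3K27ac lists come from other cultures.

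A few sites lay away from any start. In ESCs, the NCoR and SMRT lists held the same interval, with the same score, 2658 bp downstream of the start of Wnt1. It lies inside the gene (chr15:98789857-98793830), where no list had H3K27ac. Fzd5 had an ESC SMRT peak 1387 bp into the gene, next to its strongly marked start. At day 9 the distal interval of Wnt10a that carries H3K27ac in all 8 lists held a peak of both co-repressor lists. So did an interval 17370 bp beyond the higher-coordinate end of Wnt7b. At each of these, position and score were the same in both lists. The H3K27ac peaks of MEFs and day 13 FLAG near that Wnt7b interval, 17884 and 17621 bp beyond the same end, did not overlap it. The remaining 15 genes had no co-repressor peak in their locus in any list, among them Fzd4, Fzd7, Fzd8 and Fzd10.

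The rest of the pathway is given through 60 genes in 7 lists chosen by role. More locus peaks in ESCs than in MEFs were found for 19, fewer for 20 and the same number for 21, with a median difference of 0, against 27.8% of all genes with more and 22.7% with fewer. The 6 co-receptors and alternative receptors all had fewer in ESCs, by 2 or more, with a median difference of -3. Of all genes 10.3% had so many fewer. The loci of these 6 are longer than the median locus of all genes, 57.2 kb, and locus counts were not adjusted for length. Lrp5 and Lrp6 had 3 in ESCs and 5 in MEFs each. Ptk7 had 5 and 12, Ror2 5 and 9, Ryk 2 and 5, and Ror1 0 and 3. The Frizzled genes, with 14 and 13 peaks, did not share this difference in number. At the starts of the 6 receptors, ESCs and MEFs differed at Ror1 alone, which was marked in MEFs and not in ESCs.

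Of the 10 intracellular transducers, 6 had more in ESCs and 2 fewer (27.8% and 22.7% of all genes). Gsk3b, the kinase that marks beta-catenin for destruction and is the target of CHIR99021, had 13 peaks in ESCs and 3 in MEFs, and 1 or 2 in the OSKM lists. Dvl3, which relays the Frizzled signal, had 7 and 4, and Btrc, which delivers beta-catenin to the proteasome, 4 and 1. Gsk3b is thus the largest difference of the list, and its paralogue Gsk3a had 4 and 3.

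**Figure D5:**
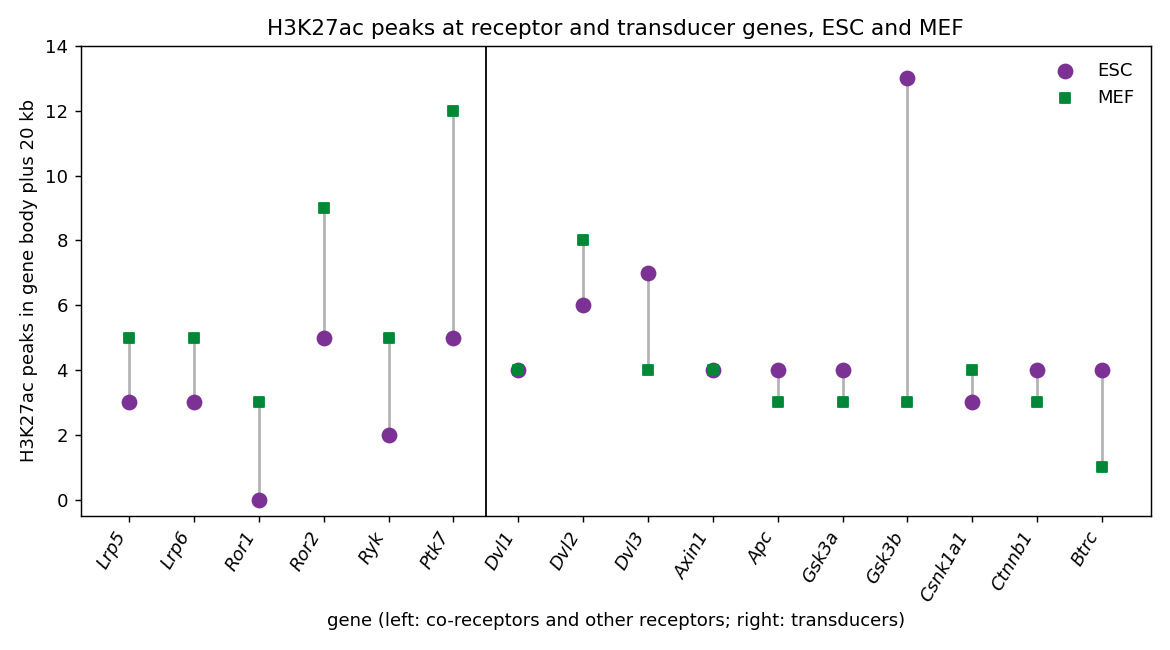
H3K27ac peaks at the locus in ESCs (purple circles) and MEFs (green squares) for the 6 co-receptors and other receptors, left of the line, and the 10 intracellular transducers, right of it, from 1 library each. Squares stand above circles for all 6 genes on the left, and the Gsk3b circle stands at 13 against 3.

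Of the 13 secreted inhibitors 6 had more in ESCs and 4 fewer, again beside 27.8% and 22.7% of all genes. Dkk3, of the Dickkopf family, had 0 in ESCs, 8 in MEFs and 0 in each OSKM list, whereas Sfrp1, which sequesters WNTs, had 5 and 1. Kremen1, a Dickkopf receptor, had 1 and 4. Of the 3 genes of ligand processing, Notum, which removes the lipid from WNTs, had 6 and 2, and Porcn and Wls, which attach the lipid and carry WNTs to the surface, were equal at 4 and at 2. Among the 9 R-spondin axis genes differences were of at most 1 peak, as for Lgr4 (3 and 4), Rspo3 (0 and 1) and Znrf3 (4 and 3). Of the 12 TCF/LEF factors and partners 4 had more and 4 fewer, with the same shares of all genes, and with Tcf7l2 at 2 and 9, Bcl9l at 3 and 6 and Tle3 at 6 and 3. Of the 7 target and feedback genes Axin2 had 1 and 3, Ccnd1 2 and 4 and Sp5 1 and 0, so 1 gene of the list had more in ESCs and 2 had fewer. The part of medium, strain and cell type in these differences was not tested.

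Between the arms, 8, 9 and 19 of the 60 genes had more locus peaks with HDAC3-YF on days 5, 9 and 13, and 13, 20 and 13 had fewer. Over all genes 14.2%, 10.7% and 15.5% had more and 11.0%, 15.0% and 16.4% fewer. None of the 60 differed in the same direction at all 3 days, where 0.635% of all genes had more and 1.44% fewer throughout. A co-repressor site was in the locus of 19 of the 60 in ESCs (31.7%, against 29.7% of all genes) and of 26 at day 9 (43.3% against 37.2%). It was at the start of 8 in ESCs (13.3% against 15.0%) and of 14 at day 9 (23.3% against 22.7%), so the shares lay near those of all genes. By list, the day 9 start sites were at 5 of 10 transducers, 4 of 12 TCF/LEF factors and partners, 2 of 6 co-receptors and other receptors, 1 of 3 processing genes, 1 of 9 R-spondin axis genes, 1 of 13 secreted inhibitors and 0 of 7 target and feedback genes.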

How the data were processed

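The authors deposited 1 peak list per library. Per the submitters' processing notes, Bowtie2 2.2.0, MACS 1.4 and mm10 were used, without settings or roles. Every interval is 200 bp wide, so width carries no information and a broad domain counts as 1 or several intervals. The deposited score (its scale is not stated) reaches a ceiling of 200 in the H3K27ac lists, and was used only to rank peaks within a list. In the NCoR and SMRT lists it is signed and is not a height, so no peak was ranked by it. The NCoR lists hold no score below -0.9904 in ESCs and -0.9786 at day 9. The SMRT lists hold none above 0.998 and 0.9914. A peak in 1 of the 2 lists therefore does not show that the other co-repressor was absent. Where an interval and its score are the same in both lists, presence in both does not show that each protein was mapped there separately. Controls used for peak calling are not given in the sources used here.

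Gene positions came from RefSeq on GRCm38.p6. That table gives no strand; strand and starts came from the RefSeq promoter table for 21 of the 29 genes, and both annotated ends were used for the other 8. Peaks were counted in the gene body plus 20 kb (at least 1 bp of overlap) and at the start (centre within 1 kb), for the 29 genes and for all 21887 protein-coding genes in the same way, with Python 3.11.15, numpy 2.4.6 and pandas 2.3.3. The counting was tested on simulated data. With 1 library per group, a gene was called higher or lower where counts differed by at least 1 peak, and no p-value was computed except the exact permutation test that takes the 3 days as pairs (SciPy 1.17.1).

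Genes described with values in every list are those with 2 or more H3K27ac peaks in a list or any co-repressor peak, 20 of the 29; the other 9 are given by counts. Of each pathway list, the 3 genes with the largest ESC to MEF difference are named, where that many differed, and others were named after their values were seen, as were the promoters printed and the motifs searched. The genes and lists were chosen with earlier results of these data known. Alternatives were 5 kb flanks, the top 50% or an equal number (14251) of H3K27ac peaks, merging of peaks within 1 kb, 2.5 kb around starts, the peak centre within the window, sites held by both co-repressors and, chosen after seeing the data, leaving out peaks at the start of another gene.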

Additional observations from a re-analysis of the deposited data

Results flagged for a closer look

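Counted over all peaks, Fzd7 locus H3K27ac differed between the arms in opposite directions on different days. HDAC3-YF minus FLAG was 3 peaks at day 9 (4 against 1) and -2 peaks at day 13 (1 against 3), and the counts were equal at day 5 (1 and 1). With 1 library per arm and day the difference between days was not tested. Of the 4 peaks at day 9 with HDAC3-YF, the shares of that list at or below their scores were 12.1%, 7.51%, 38.3% and 19.7%. These peaks were thus in the lower part of the list. The single FLAG peak of day 9 stood at 54.7% of its own list. At day 13 the 3 FLAG peaks stood at 10.9%, 26.0% and 23.9%, and the single HDAC3-YF peak at 70.0%. The top 50% of each list therefore keeps only the single peak on both days, which turns both directions. Merging peaks within 1 kb joins 2 of the 4 day 9 peaks with HDAC3-YF.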

How the results depend on the processing

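The counts rest on peak calls in single libraries of unknown depth, and a difference of 1 peak can turn on a call near the lowest score. Results that moved by over 1.5 times were all counts. With 5 kb flanks, genes with more locus peaks with HDAC3-YF at day 5 went from 2 to 1 and with fewer from 5 to 3, those with fewer at day 13 from 10 to 6 (other pathway genes from 13 to 8), genes with H3K27ac in all 8 lists from 8 to 4 and in none from 3 to 7, and loci with a day 9 co-repressor site from 11 to 7. With the top 50% of each H3K27ac list, the genes with more at days 5 and 13 numbered 1 and 3, those with fewer at days 5, 9 and 13 numbered 0, 2 and 1, so that more genes were higher than lower with HDAC3-YF at days 5 and 13, the opposite of all peaks (8.68% of all genes higher and 5.74% lower at day 5, 5.77% and 8.39% at day 9, 8.76% and 10.8% at day 13), and 5 had a peak in all lists and 8 in none; of the other pathway genes, 11 had more in ESCs, 3 and 8 had more with HDAC3-YF at days 9 and 13, and 6, 7 and 8 had fewer at days 5, 9 and 13. With equal numbers of peaks, 3 genes had fewer and 4 more at day 9 in place of 7 and 3, which turns the balance, and 5 other pathway genes had more at day 5 in place of 8. Leaving out peaks at the start of another gene, chosen after seeing the data, gave 5 genes with a peak in all 8 lists in place of 8. In the remaining settings each recomputed count stayed within 1.5 times, 18 with peaks merged within 1 kb, 26 with 2.5 kb around the start, 2 with the centre in the window and 2 with sites of both co-repressors. The start counts of Frizzled and WNT genes, in all 8 H3K27ac lists and for both sets of co-repressor sites, were recomputed with 2.5 kb alone and were among those that stayed. The labels pair the arms by day alone, and the exact test over the 3 days, added after seeing the data, could reach no p below 0.25.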
